A study of Drosophila melanogaster with 24 samples.

Results

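The genes described here encode the enzymes that remove superoxide and peroxides and the thioredoxin system that serves them: Sod, Sod2, Cat, Trxr-1, Trx-2, Jafrac1, Jafrac2, Prx3, Prx5 and PHGPx. They were taken by symbol, as the loci whose gene field holds one of these 10 symbols, and all 10 were found among 14542 loci. Transcripts were measured by RNA-seq in S2 cells, a cultured Drosophila line of embryonic origin with hemocyte features. The study asked how the scaffold protein SIN3 and the histone demethylase dKDM5/LID, which act together in a deacetylase complex, affect transcription with and without oxidative stress. There were 8 groups of 3 replicates, 24 samples in all, and every cell received dsRNA for 4 days. The paraquat groups, kept for 24 h in 8.3 mM paraquat, were SIN3 KD + LID KD + paraquat (dsRNA against Sin3A and lid), SIN3 KD + paraquat (Sin3A dsRNA), LID KD + paraquat (lid dsRNA) and GFP RNAi + paraquat (dsRNA against GFP, a gene the cells lack). The unstressed groups were SIN3 KD + LID KD, SIN3 KD, LID KD and GFP RNAi, with the same dsRNAs.

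Paraquat is a redox-cycling herbicide that passes electrons to oxygen and so makes superoxide. Superoxide dismutases turn superoxide into hydrogen peroxide, which catalase, peroxiredoxins and glutathione peroxidase homologs then reduce. Peroxiredoxins are oxidised in each round and are reduced again by thioredoxin, which thioredoxin reductase recharges with electrons from NADPH. Drosophila has no glutathione reductase, and its thioredoxin system also reduces glutathione.

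Each value is an FPKM (fragments per kilobase of transcript, scaled to the total of mapped fragments) that stands for a whole group, because the authors combined the 3 replicates. No spread between replicates can therefore be given, and the fragments behind single values are unknown. The 8 group values were used as the units of a limma fit over 7287 loci with at least 1 FPKM in all 8 groups. In it each effect sets 4 group values with a treatment against the 4 without it. A log2 effect is the mean log2(FPKM + 0.1) with the treatment minus that without it, and a locus was called at an adjusted p under 0.05. All 10 genes passed this filter. Comparisons of 2 single groups were not tested here, since each side is 1 combined value, and a locus was then counted when its FPKM ratio was over 1.4-fold in either direction.

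The FPKM sum over all loci lay between 749891 and 814105 in the 8 groups, and the 10 highest loci held between 11.7% and 15.9% of it. Between 7537 and 7764 loci reached 1 FPKM in a group. The lid transcript lay between 14.9 and 17.0 FPKM in the 4 groups with lid dsRNA and between 35.8 and 43.0 FPKM in the 4 groups without it (log2 effect -1.26, SE 0.05, adjusted p = 4.0e-05). The Sin3A transcript lay between 58.0 and 61.7 FPKM in the 4 groups labelled SIN3 KD and between 62.0 and 67.9 FPKM in the other groups, and its effect did not pass the test (log2 effect -0.12, SE 0.05, adjusted p = 0.055). The transcript level in these libraries thus does not show the knockdown that these labels state. The study reports efficient reduction of the SIN3 protein by western blot, a check it describes as routine. It also reports decreased SIN3 binding at tested genes after Sin3A RNAi. Neither measurement is part of these data. Every difference given for Sin3A dsRNA is one between the groups so labelled and the others. Of 7 hemocyte markers 6 were found, and 5 of these were at 1 FPKM or more in every group, among them srp (52.6 to 85.7 FPKM) and Pxn (23.6 to 151 FPKM), while Hml stayed between 0.17 and 0.78 FPKM. The summed hemocyte markers ranged between 312 and 498 FPKM. Among them the ush locus also carries MED15, and its value cannot be assigned to either gene alone. Of the 5 hemocyte loci fitted, 3 fell with paraquat (Pxn, log2 effect -0.99, adjusted p = 0.00033, eater, -0.59, adjusted p = 0.00091, and srp, -0.33, adjusted p = 0.00089), and crq and the locus of ush gave no call (-0.04 each, adjusted p = 0.55 and 0.54). In the groups labelled SIN3 KD 2 fell (Pxn, -1.25, adjusted p = 4.5e-05, and srp, -0.28, adjusted p = 0.00062) and crq rose (0.28, adjusted p = 0.0012). With lid dsRNA Pxn alone was called (-0.42, adjusted p = 0.039). In either direction 40.5% of all 7287 loci were called with paraquat, 55.4% with Sin3A dsRNA and 7.12% with lid dsRNA. With 5 loci such counts show little. Of the markers of neurons, muscle, germline and fat body found, only elav was at 1 FPKM or more in all groups (3.22 to 5.03 FPKM), and it rose in the groups labelled SIN3 KD (log2 effect 0.50, SE 0.07, adjusted p = 0.00063). The part of these marker changes in the results was not tested. In a bulk measurement fewer cells of a type and less RNA per cell cannot be told apart.

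The 10 genes together held between 2888 and 3954 FPKM in a group. Jafrac1, a cytosolic peroxiredoxin, alone made up between 43.5% and 52.4% of that sum. It was the highest of the genes in every group (1369.9 to 1900.5 FPKM) and ranked between 77 and 100 among all loci. Trx-2, the cytosolic thioredoxin, came next in every group (523 to 840.4 FPKM), and its range did not meet that of Jafrac1 above it or that of PHGPx under it (195 to 454 FPKM). The ranges of Sod (121 to 219 FPKM), Trxr-1 (121 to 199 FPKM) and the Prx5 locus (143 to 164 FPKM) overlapped each other, and no order between any of these 3 held in all 8 groups. PHGPx was above Trxr-1 and the Prx5 locus in all 8 groups and above Sod in 7, with GFP RNAi + paraquat as the exception. Sod2 (84.9 to 107 FPKM), Prx3 (73.3 to 89.8 FPKM) and Jafrac2 (53.6 to 77.2 FPKM) had ranges that each overlapped the next, but kept this order in all 8 groups. Cat, the catalase gene, was the lowest in every group (36.4 to 48.0 FPKM). The levels of the 10 genes over the groups appear in the panels of bars by gene. FPKM is a value per length, so these levels can be set side by side.

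**Figure D1:**
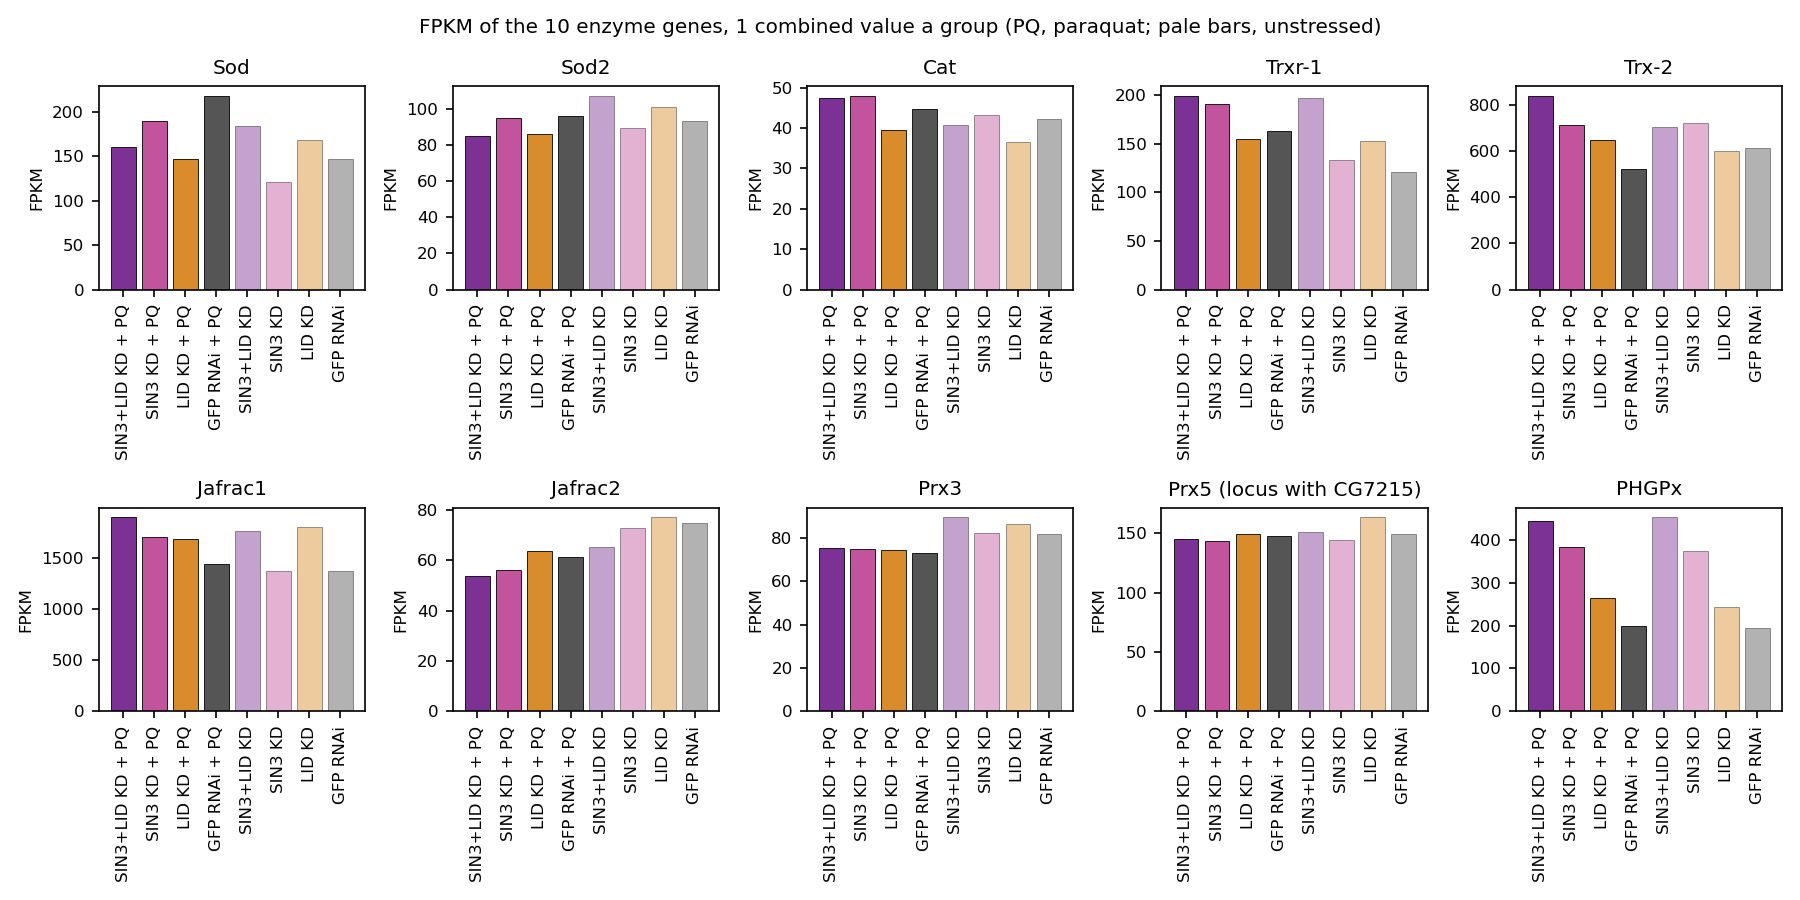
Bars give the authors' combined FPKM (y axes, linear and starting at 0) of each of the 10 genes in the 8 groups (x axes; PQ, paraquat; pale bars, unstressed), with no error bars because each group has 1 combined value. PHGPx is at 375 FPKM or more in every group with Sin3A dsRNA and at 264 FPKM or less in every other group, whereas Prx3 separates by paraquat and the Prx5 locus stays between 143 and 164 FPKM.

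Sod encodes the cytosolic copper and zinc superoxide dismutase (Sod1 in current RefSeq naming, CG11793, dm3 chromosome arm 3L, 11105381 to 11106840). With paraquat it stood at 161 FPKM in SIN3 KD + LID KD + paraquat, 190.1 in SIN3 KD + paraquat, 147 in LID KD + paraquat and 219 in GFP RNAi + paraquat. Unstressed values were 185 FPKM in SIN3 KD + LID KD, 121 in SIN3 KD, 169 in LID KD and 147 in GFP RNAi. The paraquat value was thus higher than the unstressed one in the 2 pairs without lid dsRNA and lower in the 2 pairs with it. GFP RNAi + paraquat was 1.49-fold GFP RNAi, and SIN3 KD + paraquat was 1.56-fold SIN3 KD, both past 1.4-fold. LID KD + paraquat was 0.87-fold LID KD, and SIN3 KD + LID KD + paraquat was 0.87-fold SIN3 KD + LID KD. Averaged over the dsRNAs, no main effect on Sod passed the test: 0.20 for paraquat (SE 0.16, adjusted p = 0.34), -0.05 for Sin3A dsRNA (SE 0.16, adjusted p = 0.80) and -0.00 for lid dsRNA (SE 0.16, adjusted p = 1.00). The 95% interval of the paraquat effect ran from -0.17 to 0.58 on the log2 scale.

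Sod2 encodes the mitochondrial manganese superoxide dismutase (CG8905, dm3 2R, 12660376 to 12661440). Its FPKM was 84.9 in SIN3 KD + LID KD + paraquat, 94.9 in SIN3 KD + paraquat, 86.2 in LID KD + paraquat and 96.1 in GFP RNAi + paraquat. In unstressed cells it was 107 in SIN3 KD + LID KD, 89.4 in SIN3 KD, 101 in LID KD and 93.4 in GFP RNAi. The highest and the lowest value were both in dual knockdown groups, and no comparison of single groups passed 1.4-fold. None of its main effects was called (log2 -0.11 for paraquat, SE 0.07, adjusted p = 0.26, -0.00 for Sin3A dsRNA, SE 0.07, adjusted p = 0.96, and 0.01 for lid dsRNA, SE 0.07, adjusted p = 0.92). In a fit with a term for lid dsRNA together with paraquat, added after the data were seen, its paraquat effect passed (adjusted p = 0.040).

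Cat encodes catalase, the peroxisomal enzyme that splits hydrogen peroxide into water and oxygen (CG6871, dm3 3L, 18815704 to 18821288). It was measured at 47.4 FPKM in SIN3 KD + LID KD + paraquat, 48.0 in SIN3 KD + paraquat, 39.6 in LID KD + paraquat and 44.8 in GFP RNAi + paraquat. The unstressed groups had 40.6 FPKM in SIN3 KD + LID KD, 43.2 in SIN3 KD, 36.4 in LID KD and 42.3 in GFP RNAi. All 4 paraquat groups lay above the unstressed group with the same dsRNA, by 1.06- to 1.17-fold, although the 2 sets of 4 values overlap. Cat rose with paraquat (log2 effect 0.14, SE 0.05, adjusted p = 0.044) and in the groups labelled SIN3 KD (0.14, SE 0.05, adjusted p = 0.041), and its lid dsRNA effect of -0.13 did not pass (SE 0.05, adjusted p = 0.16). Both calls sit close to the threshold. With 1 group left out the paraquat call was kept in 2 of 8 fits, those without GFP RNAi and without LID KD + paraquat, and the adjusted p reached 0.16 without SIN3 KD + LID KD + paraquat. The Sin3A dsRNA call was also kept in 2 of 8, those without GFP RNAi and without SIN3 KD, and its adjusted p was likewise highest (0.15) without SIN3 KD + LID KD + paraquat.

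PHGPx encodes a glutathione peroxidase homolog that, in Drosophila, takes its electrons from thioredoxin (Gtpx in RefSeq, CG12013, dm3 3L, 3319555 to 3328871). It had the widest range of the 10 genes, 2.33-fold between its lowest and highest group. PHGPx stood at 446 FPKM in SIN3 KD + LID KD + paraquat, 385 in SIN3 KD + paraquat, 264 in LID KD + paraquat and 199 in GFP RNAi + paraquat. Without paraquat the values were 454 in SIN3 KD + LID KD, 375 in SIN3 KD, 243 in LID KD and 195 in GFP RNAi. The order of the 4 dsRNAs was the same with and without paraquat. The groups labelled SIN3 KD lay between 375 and 454 FPKM and the others between 195 and 264 FPKM, with no overlap. PHGPx rose in the groups labelled SIN3 KD (log2 effect 0.89, SE 0.05, a fold of 1.85 with a 95% interval of 1.72 to 1.99, adjusted p = 1.9e-05), and this call held with any of the 8 groups left out (adjusted p up to 0.00028). It also rose with lid dsRNA (0.30, SE 0.05, a fold of 1.24, adjusted p = 0.012). Without LID KD the lid dsRNA effect was 0.31 and its adjusted p 0.069, so the call was lost while the size of the effect was kept. Over all loci that fit called 70 for lid dsRNA, against 519 with all 8 groups. The PHGPx call held in the other 7 fits. The paraquat effect was 0.04 (SE 0.05, adjusted p = 0.51), with a 95% interval in fold of 0.96 to 1.11. Across the 8 groups the 3 loci whose log2 FPKM was most like that of PHGPx, among 5426 loci with at least 10 FPKM in all groups, were Pmm45A (Pearson r = 0.996, 72.0 to 122 FPKM), CG8121 (r = 0.990, 47.0 to 95.9 FPKM) and CG5913 (r = 0.989, 30.1 to 40.2 FPKM). These correlations describe 8 values from the same libraries.

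Jafrac1 encodes the main cytosolic peroxiredoxin (Prx2 in RefSeq, CG1633, dm3 X, 13223881 to 13226030). Its paraquat values were 1900.5 FPKM in SIN3 KD + LID KD + paraquat, 1706 in SIN3 KD + paraquat, 1689 in LID KD + paraquat and 1439.5 in GFP RNAi + paraquat. Unstressed cells had 1763 FPKM in SIN3 KD + LID KD, 1372 in SIN3 KD, 1800.1 in LID KD and 1369.9 in GFP RNAi. All 4 groups with lid dsRNA lay above their partners without it, but the 2 sets of 4 overlap, since SIN3 KD + paraquat lies above LID KD + paraquat. The lid dsRNA effect was 0.29 (SE 0.07, fold 1.22) with an adjusted p of 0.054, just outside the threshold. In a fit with a term for lid dsRNA together with paraquat, added after the data were seen, it passed (adjusted p = 0.025). Paraquat (0.10, SE 0.07, adjusted p = 0.29) and Sin3A dsRNA (0.10, SE 0.07, adjusted p = 0.29) did not pass.

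Jafrac2 encodes a peroxiredoxin of the secretory pathway that is also known to bind an inhibitor of apoptosis (Prx4 in RefSeq, CG1274, dm3 3L, 3042359 to 3046812). In the paraquat groups it was at 53.6 FPKM in SIN3 KD + LID KD + paraquat, 56.2 in SIN3 KD + paraquat, 63.6 in LID KD + paraquat and 61.3 in GFP RNAi + paraquat. The unstressed values were 65.3 FPKM in SIN3 KD + LID KD, 72.7 in SIN3 KD, 77.2 in LID KD and 75.0 in GFP RNAi. Every paraquat group was lower than every unstressed one. Jafrac2 fell with paraquat (log2 effect -0.31, SE 0.05, a fold of 0.81 with an interval of 0.75 to 0.87, adjusted p = 0.0022), a call kept with each of the 8 groups left out. It also fell in the groups labelled SIN3 KD (-0.16, SE 0.05, adjusted p = 0.017). That call was kept in 3 of 8 fits with a group left out, those without GFP RNAi, SIN3 KD or GFP RNAi + paraquat, and its adjusted p was 0.070 without LID KD. The lid dsRNA effect was -0.03 (SE 0.05, adjusted p = 0.72).

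Prx3 encodes the mitochondrial peroxiredoxin (CG5826, dm3 3R, 13370944 to 13372253). Its 4 paraquat values were nearly alike, at 75.6 FPKM in SIN3 KD + LID KD + paraquat, 74.9 in SIN3 KD + paraquat, 74.7 in LID KD + paraquat and 73.3 in GFP RNAi + paraquat. Unstressed groups had 89.8 FPKM in SIN3 KD + LID KD, 82.5 in SIN3 KD, 86.8 in LID KD and 82.1 in GFP RNAi. Again the 2 sets do not overlap. Prx3 fell with paraquat (log2 effect -0.19, SE 0.04, a fold of 0.88 with an interval of 0.83 to 0.93, adjusted p = 0.0059), also with any 1 group left out. Its effects with Sin3A dsRNA (0.03, SE 0.04, adjusted p = 0.59) and lid dsRNA (0.06, SE 0.04, adjusted p = 0.36) did not pass.

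Prx5 encodes a peroxiredoxin found in mitochondria and other compartments (CG7217, dm3 3R, 13991164 to 13992995). Its locus also carries CG7215, and the value cannot be assigned to either gene alone. The locus had 145 FPKM in SIN3 KD + LID KD + paraquat, 143 in SIN3 KD + paraquat, 149 in LID KD + paraquat and 148 in GFP RNAi + paraquat. Without stress it had 152 in SIN3 KD + LID KD, 145 in SIN3 KD, 164 in LID KD and 149 in GFP RNAi. This was the narrowest range of the 10, 1.14-fold, and none of its effects passed (log2 between -0.06 and 0.06, SE 0.04, adjusted p between 0.22 and 0.40).

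Trx-2 encodes the cytosolic thioredoxin, an electron donor of cytosolic peroxiredoxins (Trx2 in RefSeq, CG31884, dm3 2L, 9613166 to 9616404). It was at 840.4 FPKM in SIN3 KD + LID KD + paraquat, 712 in SIN3 KD + paraquat, 650.4 in LID KD + paraquat and 523 in GFP RNAi + paraquat. Unstressed levels were 707 FPKM in SIN3 KD + LID KD, 720.2 in SIN3 KD, 603 in LID KD and 612 in GFP RNAi. All groups labelled SIN3 KD were higher than all others. The rise with Sin3A dsRNA was 0.32 on the log2 scale (SE 0.07, a fold of 1.25 with an interval of 1.11 to 1.41, adjusted p = 0.0076), and it was called with any of the 8 groups left out. Paraquat (0.03, SE 0.07, adjusted p = 0.77) and lid dsRNA (0.13, SE 0.07, adjusted p = 0.35) gave no call. The only comparison of single groups past 1.4-fold was SIN3 KD + LID KD + paraquat against GFP RNAi + paraquat, at 1.61-fold.

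Trxr-1 encodes thioredoxin reductase (Trxr1 in RefSeq, CG2151, dm3 X, 8135534 to 8142072). FPKM was 199 in SIN3 KD + LID KD + paraquat, 191 in SIN3 KD + paraquat, 155 in LID KD + paraquat and 163 in GFP RNAi + paraquat. In the unstressed groups it was 197 in SIN3 KD + LID KD, 134 in SIN3 KD, 153 in LID KD and 121 in GFP RNAi. GFP RNAi was the lowest of the 8, and the 3 groups at 191 FPKM or more all carried the SIN3 KD label, whereas unstressed SIN3 KD was among the lower values. Trxr-1 rose in the groups labelled SIN3 KD (log2 effect 0.28, SE 0.09, fold 1.21, adjusted p = 0.037). This call was kept in 3 of 8 fits with a group left out, those without SIN3 KD, GFP RNAi + paraquat or SIN3 KD + LID KD + paraquat, and its adjusted p was 0.12 without SIN3 KD + paraquat. Paraquat (0.24, SE 0.09, adjusted p = 0.072) and lid dsRNA (0.22, SE 0.09, adjusted p = 0.20) did not pass in the main fit over all groups. The paraquat effect passed without SIN3 KD + LID KD (0.32, adjusted p = 0.025) and without LID KD + paraquat (0.32, adjusted p = 0.028). With a term for lid dsRNA together with paraquat added to the fit over all groups, paraquat (adjusted p = 0.0058) and lid dsRNA (adjusted p = 0.029) both passed. That term was added after the data were seen. The dual knockdown was 1.62-fold GFP RNAi in unstressed cells, and LID KD was 1.26-fold and SIN3 KD 1.1-fold GFP RNAi.

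**Figure D2:**
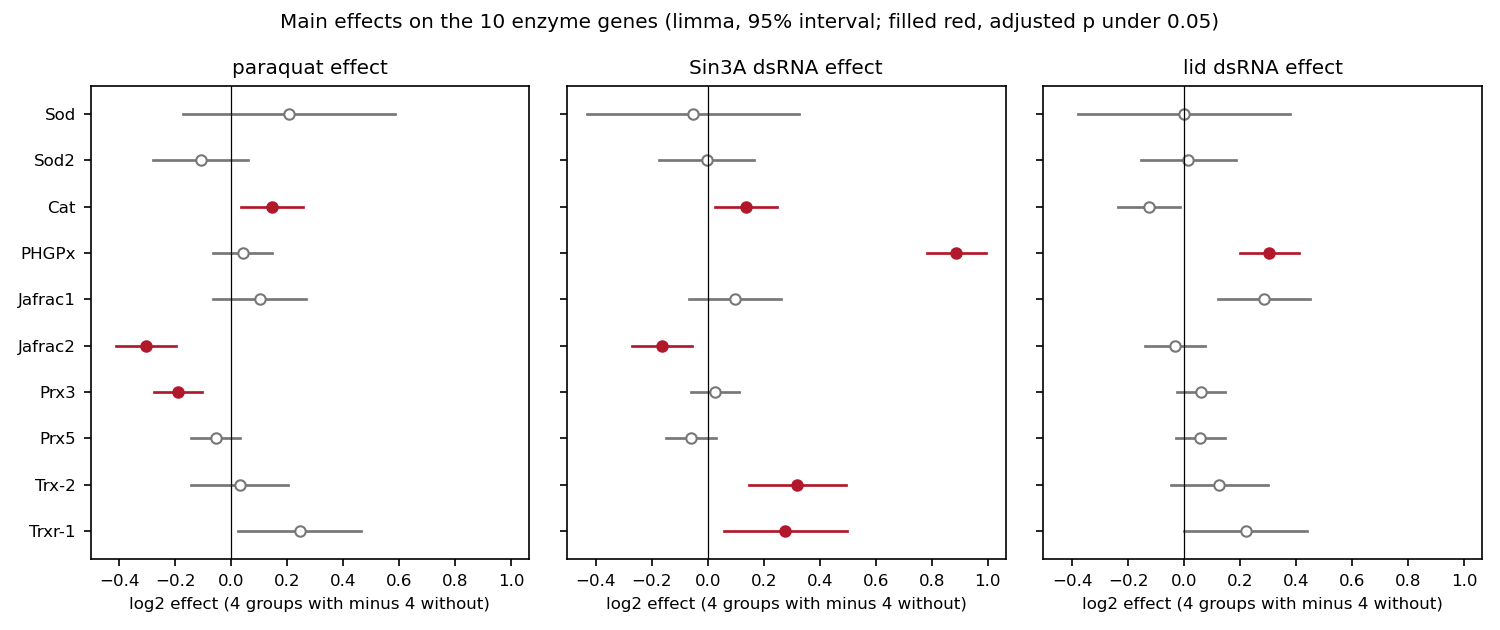
Points give the limma log2 effect and lines its 95% interval (x axes) for the 10 genes (y axis) in 3 panels, paraquat, Sin3A dsRNA and lid dsRNA, each from 4 group values with the treatment minus 4 without it; filled red points passed at an adjusted p under 0.05. The effect of Sin3A dsRNA on PHGPx, 0.89, lies apart from all other effects plotted, which range from -0.31 to 0.32.

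Counted over the 10 genes, paraquat was followed by a call in 3 (Cat higher, Jafrac2 and Prx3 lower), against 40.5% of all 7287 loci. Over all loci 1221 were called higher and 1728 lower, or 1620 and 1381 after each group was centred on its median. The 4 paraquat and the 4 unstressed values did not overlap for 2 of the 10 (Jafrac2 and Prx3), and for 15.9% of all loci. In the groups labelled SIN3 KD 5 were called (PHGPx, Trx-2, Trxr-1 and Cat higher, Jafrac2 lower), against 55.4% of all loci, and the values of 2 (PHGPx and Trx-2) did not overlap with those of the other groups, against 30.3%. With each group centred on its median 2 were called higher (PHGPx and Trx-2) and 1 lower. Over all loci 2038 were called higher and 2002 lower for Sin3A dsRNA, or 1875 and 2251 after that centring. With lid dsRNA 1 was called (PHGPx, higher), against 7.12% of loci, and the values of none were free of overlap, against 2.53%. In none of the 3 effects is the count among the 10 far from the share of all loci called. The median log2 effect over the 10 was 0.03 for paraquat, 0.06 for Sin3A dsRNA and 0.06 for lid dsRNA, beside -0.02, -0.00 and 0.01 over all loci. The median size of effect without regard to sign was 0.13 for paraquat, 0.12 for Sin3A dsRNA and 0.09 for lid dsRNA, beside 0.15, 0.20 and 0.08 over all loci.

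Comparisons of single groups gave few ratios past 1.4-fold. These comparisons share their control groups, and each has 1 value a side. Against GFP RNAi in unstressed cells, 1 of the 10 was past it in SIN3 KD (PHGPx, 1.93-fold, beside 21.6% of loci), none in LID KD (5.86%), and 2 in SIN3 KD + LID KD (PHGPx, 2.33-fold, and Trxr-1, 1.62-fold, beside 26.0% of loci). GFP RNAi + paraquat against GFP RNAi gave 1 (Sod, 1.49-fold, beside 10.9% of loci). SIN3 KD + paraquat against GFP RNAi gave 2 (PHGPx, 1.98-fold, and Trxr-1, 1.57-fold, beside 31.3% of loci), LID KD + paraquat none (14.6%), and SIN3 KD + LID KD + paraquat 2 (PHGPx, 2.29-fold, and Trxr-1, 1.64-fold, beside 34.6% of loci). Within stressed cells, against GFP RNAi + paraquat, SIN3 KD + paraquat gave 1 (PHGPx, 1.93-fold, beside 22.4% of loci). LID KD + paraquat gave 1 that was lower (Sod, 0.67-fold, beside 6.0% of loci). SIN3 KD + LID KD + paraquat gave 2 (PHGPx, 2.24-fold, and Trx-2, 1.61-fold, beside 26.1% of loci). When paraquat groups were set against the unstressed group with the same dsRNA, SIN3 KD + paraquat gave 2 (Sod, 1.56-fold, and Trxr-1, 1.43-fold, beside 15.7% of loci), LID KD + paraquat none (9.23%), and SIN3 KD + LID KD + paraquat none (11.3%). Sod, Trxr-1, Trx-2 and PHGPx were the only genes of the 10 past this fold in any of the 13 comparisons. The other 6 genes stayed under it throughout, the nearest being Jafrac2 at 0.72-fold and Jafrac1 at 1.39-fold, both in SIN3 KD + LID KD + paraquat against GFP RNAi.

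In a fit with all two-way terms, the response to paraquat of 5 of the 10 genes differed with lid dsRNA. The 3 two-way terms leave 1 residual degree of freedom. The lid dsRNA by paraquat term is the paraquat log2 ratio with lid dsRNA minus that without it. It was called in Sod (-0.81, SE 0.04, adjusted p = 0.0036), Trxr-1 (-0.45, SE 0.04, adjusted p = 0.011), Sod2 (-0.35, SE 0.05, adjusted p = 0.028), Jafrac1 (-0.18, SE 0.03, adjusted p = 0.036) and, in the other direction, Trx-2 (0.30, SE 0.03, adjusted p = 0.017). Over all loci 17.6% were called.

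For Sod the paraquat log2 ratio was -0.20 in SIN3 KD + LID KD and -0.20 in LID KD, against 0.65 in SIN3 KD and 0.57 in GFP RNAi. Sod2 had -0.34 in SIN3 KD + LID KD and -0.23 in LID KD, against 0.09 in SIN3 KD and 0.04 in GFP RNAi. Trxr-1 had 0.02 in both groups with lid dsRNA, against 0.52 in SIN3 KD and 0.42 in GFP RNAi. None of these single ratios was tested, and of them those of Sod without lid dsRNA and that of Trxr-1 in SIN3 KD were past 1.4-fold. In Trx-2 the ratio was 0.25 in SIN3 KD + LID KD and 0.11 in LID KD, against -0.02 in SIN3 KD and -0.23 in GFP RNAi. Jafrac1, with the least difference of the 5, had 0.11 in SIN3 KD + LID KD and -0.09 in LID KD, against 0.31 in SIN3 KD and 0.07 in GFP RNAi.

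The term sets SIN3 KD + LID KD, LID KD, SIN3 KD + paraquat and GFP RNAi + paraquat against the other 4 groups, and the labels name no batch. Any other difference between these sets of groups cannot be told apart from the term. When it was the only two-way term in the fit, a setting chosen after the data were seen, limma called 0 loci and 0 of the 10 genes (1445 loci and 4 of the genes at an unadjusted p under 0.05), with an adjusted p of 0.075 for Sod, 0.076 for Sod2 and Trxr-1, 0.16 for Trx-2 and 0.39 for Jafrac1. The other terms gave no call among the 10. For Sin3A dsRNA by paraquat 1 locus was called (0.0137%; 1608 loci and 2 of the 10 genes at an unadjusted p under 0.05). For Sin3A dsRNA by lid dsRNA limma called 0 loci (0%; 1919 loci and 4 of the 10 genes at an unadjusted p under 0.05), and Sod came nearest (0.37, SE 0.04, adjusted p = 0.072). The 3 loci most like Sod over the 8 groups, by Pearson's r of log2 FPKM among the 5426 loci with at least 10 FPKM, were CG2852 (r = 0.986, 210 to 431 FPKM), cype (r = 0.981, 182 to 316 FPKM) and CG6020 (r = 0.977, 60.1 to 91.4 FPKM).

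**Figure D3:**
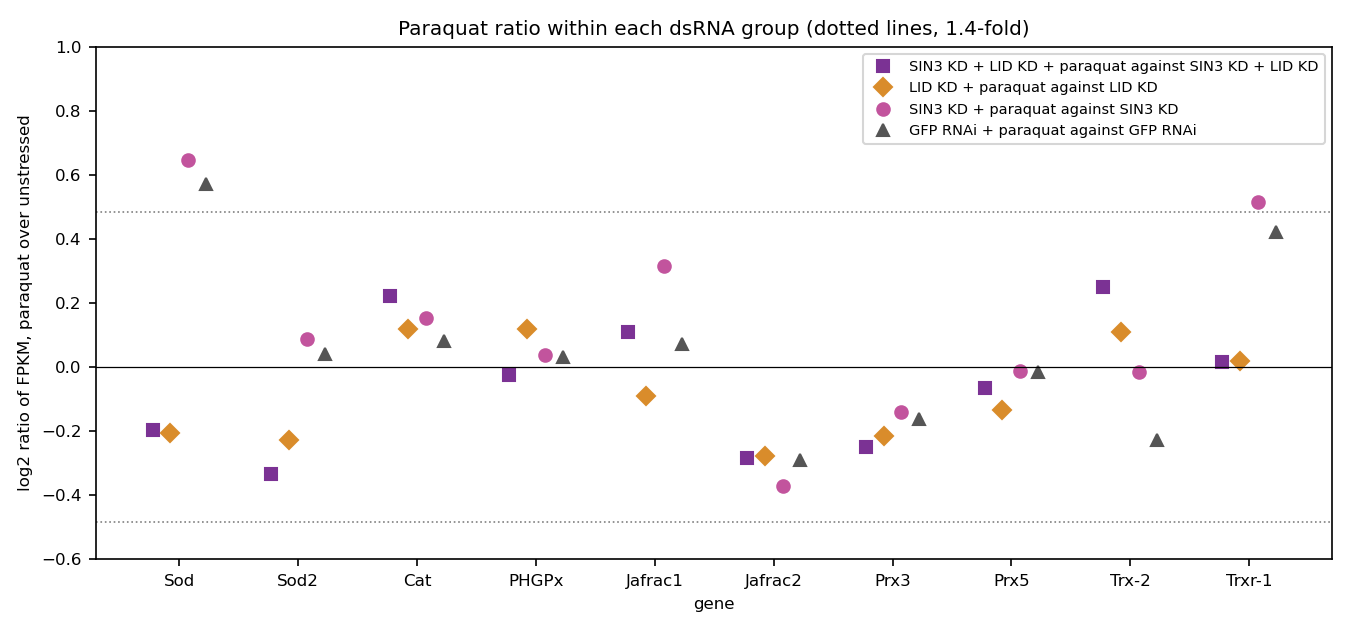
Points give the log2 ratio of FPKM, paraquat over unstressed (y axis), of the 10 genes (x axis) in SIN3 KD + LID KD (squares), LID KD (diamonds), SIN3 KD (circles) and GFP RNAi (triangles), 1 ratio each with no error; dotted lines mark 1.4-fold. For Sod the 2 ratios without lid dsRNA are 0.65 and 0.57 and the 2 with it are -0.20, whereas for Jafrac2 all 4 lie between -0.37 and -0.28.

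Other genes of the same pathway were taken from 3 lists. Of 23 further superoxide, peroxide and thiol enzymes 19 were found and 8 passed the filter. In that list 3 were called higher and 1 lower with paraquat, 2 higher and 2 lower in the groups labelled SIN3 KD, and 1 lower with lid dsRNA, with median log2 effects of 0.08, 0.01 and -0.01. The shares of all loci called, 40.5% with paraquat, 55.4% with Sin3A dsRNA and 7.12% with lid dsRNA, are near these counts. Sod3, the extracellular superoxide dismutase gene, had 3.90 FPKM in SIN3 KD + LID KD + paraquat, 3.20 in SIN3 KD + paraquat, 6.31 in LID KD + paraquat and 6.96 in GFP RNAi + paraquat. Its unstressed values were 2.28 FPKM in SIN3 KD + LID KD, 2.26 in SIN3 KD, 4.29 in LID KD and 6.23 in GFP RNAi. It fell in the groups labelled SIN3 KD (log2 effect -1.02, SE 0.13, adjusted p = 0.00043) and rose with paraquat (0.48, SE 0.13, adjusted p = 0.022), from a low level. Prx6005, a peroxiredoxin of the single-cysteine type, lay between 30.3 and 43.8 FPKM with paraquat and between 39.5 and 63.6 FPKM without. It rose in the groups labelled SIN3 KD (0.49, SE 0.06, adjusted p = 0.00026) and fell with paraquat (-0.47, SE 0.06, adjusted p = 0.00091). CG6762, named as a sulfiredoxin gene (Srx) in RefSeq, an enzyme that repairs overoxidised peroxiredoxins, lay between 13.5 and 17.1 FPKM with paraquat and between 8.65 and 11.2 FPKM without, and it rose with paraquat (0.58, SE 0.08, adjusted p = 0.0017). The Eip71CD locus, which holds a methionine sulfoxide reductase gene together with Z600 and gdl, rose in the groups labelled SIN3 KD (0.50, SE 0.05, adjusted p = 9.0e-05). Irc, an immune catalase gene, was the highest of these loci (396 to 627 FPKM) and gave no call.

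All 4 genes listed for NADPH supply were measured, and 3 were called higher with paraquat (Pgd, Men and Idh), 2 higher and 1 lower in the groups labelled SIN3 KD, and 1 higher with lid dsRNA, beside 40.5%, 55.4% and 7.12% of all loci. Idh, the NADP-dependent isocitrate dehydrogenase gene, had 520.0 FPKM in SIN3 KD + LID KD + paraquat, 458 in SIN3 KD + paraquat, 361 in LID KD + paraquat and 282 in GFP RNAi + paraquat. Unstressed it had 462 FPKM in SIN3 KD + LID KD, 372 in SIN3 KD, 291 in LID KD and 213 in GFP RNAi. It was called higher in all 3 effects: Sin3A dsRNA (0.67, SE 0.05, adjusted p = 5.7e-05), lid dsRNA (0.32, SE 0.05, adjusted p = 0.017) and paraquat (0.30, SE 0.05, adjusted p = 0.0047). Of the 4 regulators of the oxidative stress response, cnc, Keap1 and foxo were called higher with paraquat, and cnc, Keap1 and maf-S in the groups labelled SIN3 KD, beside 40.5% and 55.4% of all loci called in either direction. With lists of 4 such counts show little. Keap1, the inhibitor that holds back the activator Cnc, had 42.4 FPKM in SIN3 KD + LID KD + paraquat, 36.2 in SIN3 KD + paraquat, 19.8 in LID KD + paraquat and 15.7 in GFP RNAi + paraquat. Without paraquat Keap1 had 24.3 FPKM in SIN3 KD + LID KD, 23.1 in SIN3 KD, 13.1 in LID KD and 14.1 in GFP RNAi. Its log2 effects were 0.97 for Sin3A dsRNA (SE 0.09, adjusted p = 0.00012) and 0.55 for paraquat (SE 0.09, adjusted p = 0.0038).

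**Figure D4:**
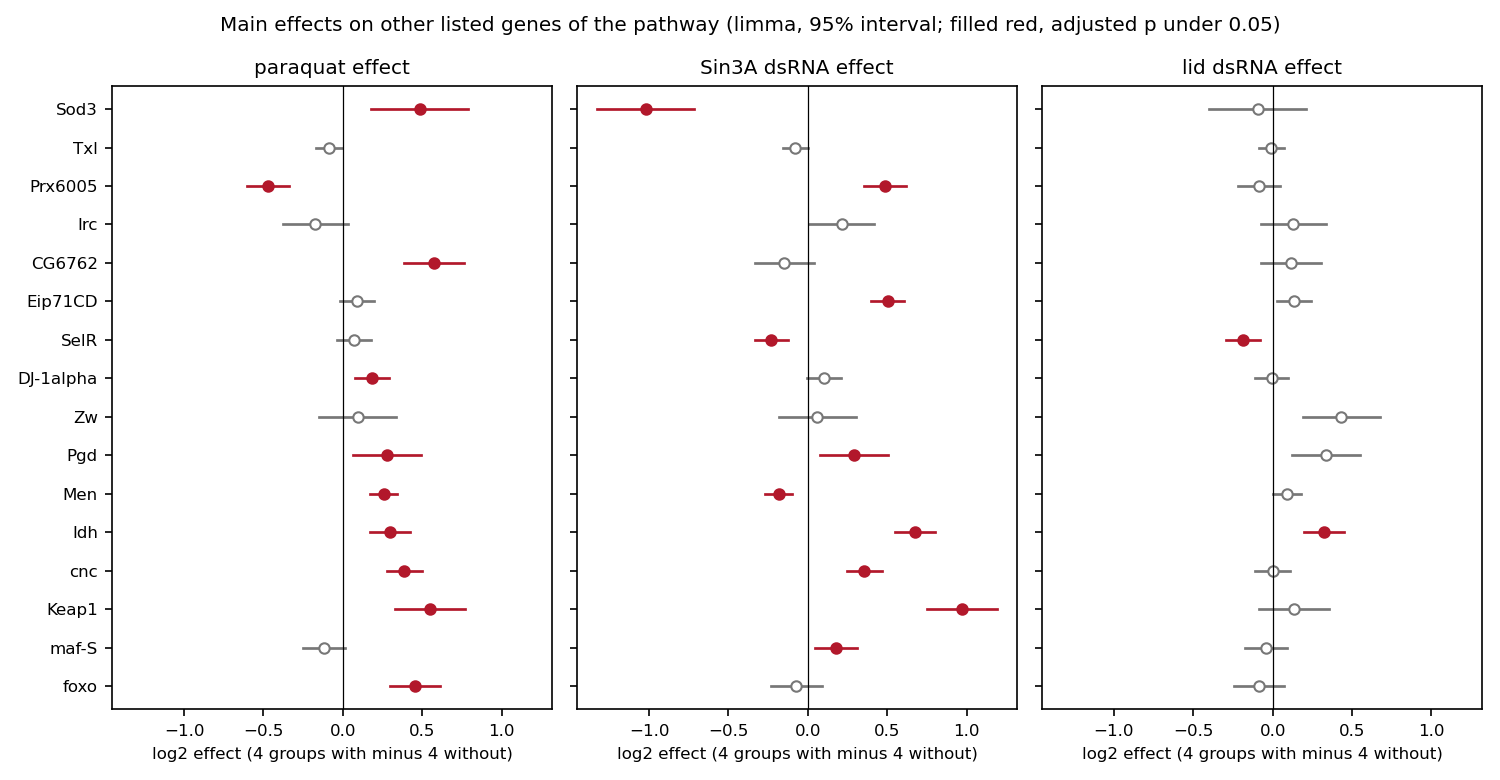
Points and lines give the limma log2 effect and its 95% interval (x axes) for the 16 other listed loci that passed the filter (y axis; Eip71CD shares its locus with Z600 and gdl, and DJ-1alpha with AGO1), in panels for paraquat, Sin3A dsRNA and lid dsRNA; filled red points passed at an adjusted p under 0.05. Keap1 and Sod3 have the outermost Sin3A dsRNA effects, 0.97 and -1.02.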

How the data were processed

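The authors prepared non-stranded libraries with the TruSeq kit, mapped paired reads on dm3 by TopHat with Bowtie, assembled and quantified by Cufflinks and compared groups by Cuffdiff. Versions of these tools are not given in the sources used here. They deposited 7 tables, each of 1 group against GFP RNAi over 14542 loci. The FPKM values were deposited as 1 value a group and locus, with the 3 replicates combined by the authors. The tables also hold the authors' fold changes, test statistics, p-values, q-values and significance calls, which were not used. GFP RNAi values were the same in all 7 tables. Positions are dm3, with 1 added to each start, and 448 loci carry more than 1 gene name. Current names come from RefSeq.

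The group values were fitted with limma 3.58.1 in R 4.3.3 on log2(FPKM + 0.1), with a variance trend, 4 residual degrees of freedom and Benjamini-Hochberg adjustment over 7287 loci with at least 1 FPKM in all 8 groups. The tests are two-sided. The residual is formed by the interactions of the treatments. Each main-effect p-value thus sets the effect against departures from additivity over combined values, not against spread between replicates. In the fit with all two-way terms the residual is the 3-way interaction alone, with 1 degree of freedom. The study describes the replicates as biological. The fits were run on simulated data with independent noise, and the run for the main effects held no interactions. It therefore cannot show how often calls are false where interactions form the residual. Alternatives were pseudocounts, filters, centring on the median, 4 dsRNA levels, no trend, other thresholds and each group left out. Settings with lid dsRNA by paraquat added to the main effects or as the only two-way term, and other settings of that term, were added after the data were seen. The two-way terms themselves were planned. The genes and lists were chosen with earlier results of these data known. Named are all 10 genes, both dsRNA targets, at most 6 other listed genes called, by size, and 3 loci most like the 2 genes with the widest range. Genes named beyond that rule (Pxn, srp, crq, eater, ush, Hml, elav, Irc, Pgd, Men, cnc, foxo, maf-S) illustrate their lists and were chosen after their values were seen. No genome or sequence table was used here.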

Additional observations from a re-analysis of the deposited data

Results flagged for a closer look

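In 5 of the 10 genes the paraquat response differed between cells with and without lid dsRNA, by the lid dsRNA by paraquat term of the limma fit with all two-way terms. The term was -0.81 for Sod, -0.45 for Trxr-1, -0.35 for Sod2, -0.18 for Jafrac1 and 0.30 for Trx-2 on the log2 scale. It was also called at 1281 of 7287 loci, and it rests on 1 residual degree of freedom. Any other difference between the sets of groups that the term compares cannot be told apart from it. With lid dsRNA by paraquat as the only two-way term no locus was called, and 1445 loci had an unadjusted p under 0.05. No outlying sample could be sought, since each group has 1 combined value.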

How the results depend on the processing

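No paired analysis was possible because the deposited values combine the 3 replicates of a group. Each value rests on an unknown number of fragments, and calls in the fits rest on 8 combined values, which limits what could be detected. Of 550 fitted effects of the 10 genes under other settings, 484 kept their direction and side of the threshold. The calls of PHGPx and Trx-2 with Sin3A dsRNA and of Jafrac2 and Prx3 with paraquat held in all 17 alternatives. Those of Cat (paraquat and Sin3A dsRNA), of Trxr-1 and Jafrac2 with Sin3A dsRNA and of PHGPx with lid dsRNA did not, and the causes were not tested. All 3 thresholds of fold give other counts by construction. Ratios counted were 70 for each group against GFP RNAi, 30 for stressed knockdowns against stressed GFP RNAi and 40 for paraquat within dsRNA groups. In that order 25, 10 and 10 passed over 1.2-fold, 8, 4 and 3 over 1.4-fold, and 2, 1 and 0 over 2-fold. The ratios share control groups, and GFP RNAi + paraquat against GFP RNAi is in both the first and the last set. Shares of all loci over 1.2-fold and over 2-fold were not computed, so the counts at these thresholds are not read as a result about the 10 genes. With the lid dsRNA by paraquat term added, 5 genes were called for paraquat and 3 for lid dsRNA, with 3602 loci for paraquat and 950 loci for lid dsRNA. The genes gained were Sod2 and Trxr-1 for paraquat and Jafrac1 and Trxr-1 for lid dsRNA. For Sin3A dsRNA the main fit called 5 genes and 4040 loci. It was 3 genes and 4039 loci without a filter, 3 and 4126 centred on the median, and 3 and 3979 without a variance trend. At an adjusted p under 0.1 lid dsRNA gave 2 genes and 1005 loci, and without a filter 152 loci. As the only two-way term, lid dsRNA by paraquat gave 0 genes and 0 loci (1445 loci at an unadjusted p under 0.05). With 1 group left out, calls ranged from 2 to 4 genes and 1745 to 2947 loci for paraquat, 2 to 5 genes and 3219 to 3902 loci for Sin3A dsRNA, and 0 to 1 gene and 70 to 316 loci for lid dsRNA, with the lowest without SIN3 KD + paraquat for the paraquat loci and without LID KD for lid dsRNA. Directions turned only in effects that were called under no setting run. Centred on the median, Prx3 was -0.0021 for Sin3A dsRNA and PHGPx -0.012 for lid dsRNA by paraquat. With 1 group left out, log2 effects ranged from -0.031 to 0.099 (Trx-2, paraquat), -0.20 to 0.10 (Sod, Sin3A dsRNA), -0.070 to 0.054 (Sod2, Sin3A dsRNA), -0.16 to 0.15 (Sod, lid dsRNA), -0.051 to 0.062 (Sod2, lid dsRNA) and -0.058 to 0.0044 (Jafrac2, lid dsRNA).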
